A study of Mus musculus with 70 samples.

Results

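The response of WSB mice to axotomy, the cutting of the axons of sensory neurons, was described in the dorsal root ganglia, or DRGs, which lie beside the spinal cord and hold the cell bodies of sensory neurons. Its members were the 8 arrays whose titles name strain WSB, 4 labelled AX5D (read here as 5 days after axotomy) and 4 labelled naive (uninjured), of 70 arrays in all. The other 62 arrays held ganglia of 8 more strains, 129, AJ, C3H, C57, CAST, DBA, NOD and NZO, injured and naive in the same way, with 4 arrays a group except 3 in each AJ group. Each sample was total RNA of 6 DRGs from 3 mice, labelled as a biologically distinct replicate, and was hybridised as biotinylated cRNA to an Illumina bead array. Since ganglia were pooled over mice and cell types, a fall in a transcript with fewer cells of a type cannot be told apart from less RNA per cell. The sources used here do not give the animals' age.

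A cut peripheral axon sets off a regrowth programme in the neuron's cell body. Transcription factors such as Atf3 and Jun and neuropeptides such as galanin and neuropeptide Y rise, while receptors and ion channels of the resting neuron fall. Macrophages gather around the cell bodies, and the glia that wrap them change state.

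All values are normalised intensities on the log2 scale, and a response is the mean of the AX5D arrays minus the mean of the naive arrays. A gene was called at an adjusted p of 0.05 in limma, adjusted over all 11815 genes, and every adjusted p below comes from that fit. On the WSB arrays, 13539 to 14378 probes were above background (detection p under 0.05) after axotomy and 13841 to 13963 in naive ganglia. Array-to-array correlations within a group were 0.983 to 0.991 for the AX5D arrays and 0.986 to 0.991 for the naive arrays. Precision is limited by the number of arrays. Of the marker genes measured, 20 of 25 for nociceptors and 16 of 17 for large-diameter neurons were above background on all 8 WSB arrays, and the neurofilament gene Nefl, of the large-diameter list, was above background on none. Skeletal muscle genes were above background on all 8 arrays for 6 of 18, with Ckm, Mb, Myh1 and Myh4 on none. Their summed intensity was 9971 to 13675 after axotomy and 19522 to 22149 in naive ganglia, and its part in the results was not tested. That sum includes Pvalb, which is also in the large-diameter list. Of the 18 muscle genes, 1 was called higher and 2 lower, against 18.4% and 19.2% of all genes.

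In WSB ganglia 4443 of 11815 genes (37.6%) were called, 2178 higher (18.4%) and 2265 lower (19.2%) after axotomy. A change of at least 4-fold was called higher in 198 genes (1.68%) and lower in 32 genes (0.271%). For 3605 genes (30.5%) the call came with no overlap between the AX5D and the naive arrays. Calls were about as many in each direction, and most of the changes of at least 4-fold were upward.

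Among genes above background on at least 3 of 4 arrays in both WSB groups, those that rose furthest were led by Npy, Gpr151, Sprr1a and Atf3. Npy, neuropeptide Y, read 13.89, 13.79, 13.97 and 13.79 on the AX5D arrays, against 6.54, 6.51, 6.89 and 6.33 on the naive arrays, a response of 7.30 (SE 0.27, 157-fold, adjusted p 2.7e-32). The orphan receptor gene Gpr151 read 13.45, 13.24, 13.60 and 13.23 after axotomy, against 6.61, 7.21, 7.54 and 6.79 in naive ganglia (6.35, SE 0.16, adjusted p 4.3e-41). Sprr1a, a small proline-rich protein first known from skin and able to promote axon outgrowth, read 12.78, 12.85, 12.60 and 12.90 after axotomy, against 6.71, 6.13, 7.29 and 6.67 in naive ganglia (6.08, SE 0.31, adjusted p 1.8e-25). In all of these the lowest injured array stood far above the highest naive array. Atf3, the standard nuclear marker of an injured neuron, read 13.53, 13.39, 13.41 and 13.48, against 7.28, 7.44, 7.93 and 7.26 in naive ganglia (5.98, SE 0.19, adjusted p 4.4e-36). Gal, galanin, read 14.98, 15.02, 14.83 and 15.15, against 9.66, 9.67, 9.53 and 9.77 (5.34, SE 0.23, adjusted p 2.1e-29), so that it was already well above background before injury. The other genes of the highest 10 were Wfdc3 (5.80), the macrophage receptor gene Fcrls (4.76), Fst, the activin-binding protein follistatin (4.65), the transcription factor gene Wt1 (4.51) and the kinesin gene Kif22 (4.21).

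**Figure D1:**
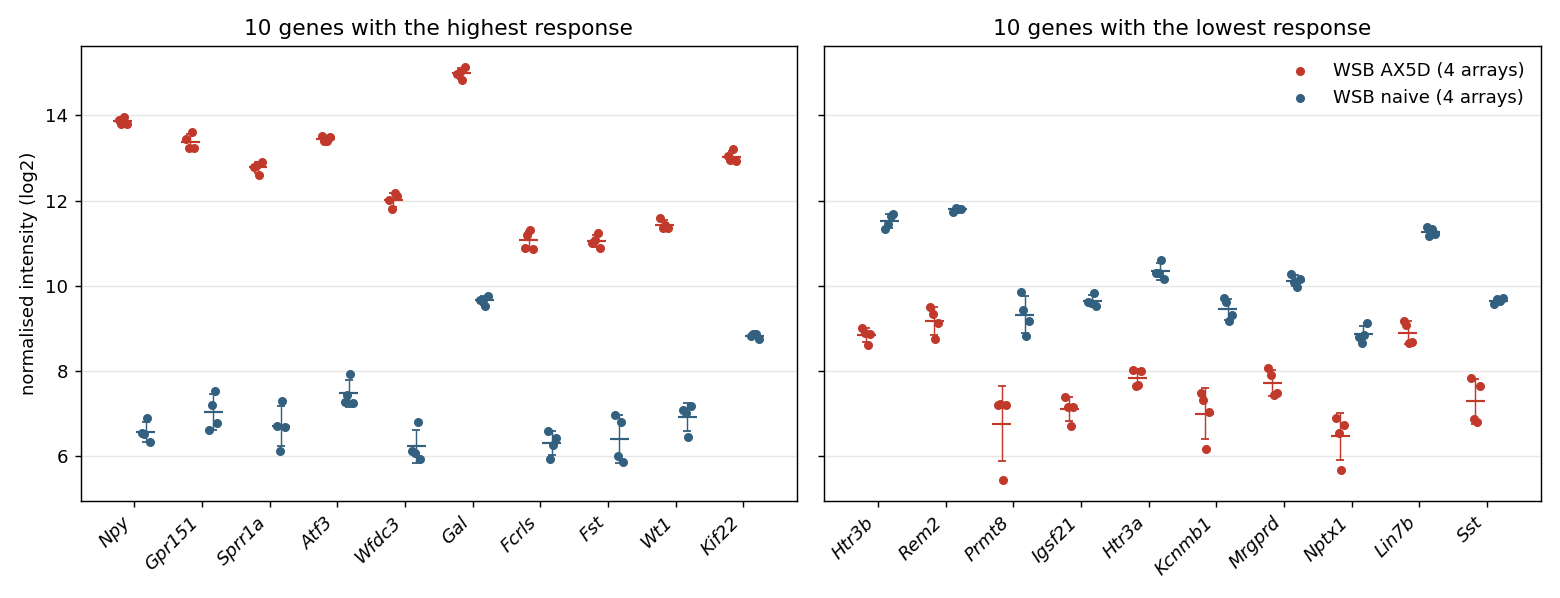
Normalised intensity (log2, vertical axis) of the 10 genes with the highest response (left) and the 10 with the lowest (right), among genes above background on at least 3 of 4 arrays of both groups, on each WSB array, AX5D in red beside naive in blue, with the group mean as a line and 1 SD as bars. In no gene shown do the AX5D and naive arrays overlap, and 1 AX5D array of Prmt8 lies at 5.44 while the other 3 lie at 7.19 to 7.23.

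For 121 genes (1.02% of those tested) the transcript was above background on all 4 AX5D arrays and on no naive array and was called, so that only a lower bound of the fold can be given, with the lowest signal above background standing for the naive level. Slc6a4, the serotonin transporter, read 11.50, 11.28, 11.60 and 11.45 after axotomy, at least 45.6-fold above naive ganglia (adjusted p 1.0e-39). The lipase gene Lipn read 11.17, 10.96, 11.02 and 10.60 after axotomy (at least 31.9-fold, adjusted p 1.7e-40). Cckbr, a cholecystokinin receptor, read 10.26, 10.34, 10.63 and 10.44 after axotomy (at least 22.2-fold, adjusted p 2.9e-40). Within WSB, these transcripts were thus measured in injured ganglia alone. Slc6a4 and Cckbr were above background on the AX5D arrays of every other strain too, and Lipn on those of all but CAST. C1ql2, a secreted C1q-like protein of synapses, followed with at least 18.6-fold, Reg1, a secreted lectin-like regenerating protein, with at least 13.0-fold, and the chemokine gene Ccl7 with at least 12.5-fold. Speer3 (at least 31.2-fold) and Speer1 (at least 17.4-fold) belong to a multicopy family, so their probes may bind other copies. For Speer1, 2 further kept probes also responded, by 4.13 and 3.19.

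The Sprr genes lie in 1 cluster on chromosome 3, and 6 members were measured. Besides Sprr1a, Sprr1b was above background on 4 AX5D and 0 naive arrays of WSB (at least 7.45-fold), Sprr2g likewise (at least 1.70-fold), and Sprr2f likewise (at least 6.20-fold). Sprr2f read 8.98, 8.73, 8.11 and 8.48 on the AX5D arrays of WSB. Among the other strains it was above background on all 4 AX5D arrays of NOD, at a mean of 8.77, and on no array, injured or naive, of the remaining 7. Sprr2a1 (-0.09) was above background on all 8 WSB arrays and was not called, and Sprr2j-ps was above background on 2 AX5D arrays. The Sprr2 genes are close copies of each other, so which copy each probe reads is uncertain.

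The promoter windows of 4 of these injury-induced genes are printed because they hold the letters TGACTCA or TGAGTCA, each the reverse complement of the other, known as the core site of AP-1, the family of dimers to which Jun and Atf3 belong. They come from RefSeq (build GRCm38.p6), run 5′ to 3′ on the gene's strand from 250 bases before the start to 50 after it, and carry the motif in capitals. Sprr1a (chr3:92485832-92486131, minus strand) has 2 matches, which begin 146 and 116 bases before the start. Sprr2f (chr3:92364937-92365236, plus strand) has 1 at 197 bases, Lipn (chr19:34067108-34067407, plus strand) 1 at 148 bases, and Lrrc15 (chr16:30283205-30283504, minus strand), described below, 1 at 53 bases.
Sprr1a: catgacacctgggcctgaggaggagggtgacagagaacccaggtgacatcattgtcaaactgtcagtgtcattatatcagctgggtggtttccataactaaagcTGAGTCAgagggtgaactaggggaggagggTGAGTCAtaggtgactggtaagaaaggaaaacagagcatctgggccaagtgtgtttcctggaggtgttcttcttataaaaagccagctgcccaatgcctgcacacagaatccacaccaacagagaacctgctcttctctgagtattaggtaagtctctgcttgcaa
Sprr2f: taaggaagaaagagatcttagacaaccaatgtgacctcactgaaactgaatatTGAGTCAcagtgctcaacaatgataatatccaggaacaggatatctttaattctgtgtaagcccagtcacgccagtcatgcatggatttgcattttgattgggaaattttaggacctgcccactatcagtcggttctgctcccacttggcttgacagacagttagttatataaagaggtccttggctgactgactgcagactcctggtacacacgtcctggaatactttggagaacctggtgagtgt
Lipn: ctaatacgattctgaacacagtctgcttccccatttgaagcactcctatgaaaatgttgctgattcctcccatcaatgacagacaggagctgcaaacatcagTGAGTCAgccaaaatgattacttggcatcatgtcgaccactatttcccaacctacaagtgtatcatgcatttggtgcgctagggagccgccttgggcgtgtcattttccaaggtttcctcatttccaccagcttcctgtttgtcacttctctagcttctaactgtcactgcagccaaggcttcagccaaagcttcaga
Lrrc15: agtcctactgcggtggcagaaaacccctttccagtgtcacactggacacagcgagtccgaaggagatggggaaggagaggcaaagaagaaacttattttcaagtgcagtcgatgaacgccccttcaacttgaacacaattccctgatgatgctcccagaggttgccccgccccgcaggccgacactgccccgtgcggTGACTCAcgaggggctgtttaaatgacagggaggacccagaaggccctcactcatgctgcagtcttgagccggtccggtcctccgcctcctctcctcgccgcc
The motif stood in 15 of 147 promoters (10.2%) of genes called at least 4-fold higher in WSB, in 105 of 1552 (6.77%) of genes called higher by less, in 77 of 1836 (4.19%) of genes called lower and in 305 of 5980 (5.1%) of genes not called. Over all 32851 promoters of the table it stood in 1709 (5.2%), and of the 11815 measured genes 9515 had a promoter in it. A match describes these letters alone. It also stood in promoters of genes that did not rise in WSB, Aifm3, Cxcl10 and Mgst2.

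Of 49 measured regeneration-associated genes, those known to rise when sensory neurons regrow, 39 rose and 2 fell, with a median of 2.09, against -0.03 over all genes tested. The members were chosen as known injury genes, so their direction is no independent finding. Jun, a partner of AP-1, read 12.08, 11.98, 12.15 and 12.02 after axotomy, against 9.997, 9.95, 10.17 and 10.16 in naive ganglia (1.98, SE 0.08, adjusted p 1.5e-29). Gap43, a growth cone protein already abundant in naive neurons, read 13.88, 13.87, 13.41 and 13.99, against 12.67, 12.76, 12.02 and 12.43 (1.32, SE 0.19, adjusted p 2.9e-08). Both rose with no overlap between the groups, by smaller steps than the peptides. Ecel1, a membrane peptidase of injured neurons, rose by 6.13 (SE 0.18) and was above background on 1 naive array. The urokinase receptor gene Plaur rose by 3.16, the nuclear protein gene Ankrd1 by 2.95, and Socs3, the feedback inhibitor of gp130 cytokine signalling, by 2.49. The 2 members that fell were Nrn1, neuritin (-1.30), and the low-affinity neurotrophin receptor gene Ngfr (-0.25).

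Signalling genes of injury moved in part, read here against the 18.4% of all genes that were higher and the 19.2% that were lower. Of 13 genes of the activin pathway, 8 were higher and 1, the follistatin-like gene Fstl1 (-1.02), was lower. Inhba, an activin subunit, read 6.16, 6.29, 6.17 and 6.06 after axotomy and was above background on no naive array (at least 1.17-fold, adjusted p 0.0055). Of 16 gp130 cytokine pathway genes, 6 were higher, among them Socs3, Jak2 (0.93) and Socs2 (1.01), and the receptor gene Osmr (-0.48) was lower. Among 12 neurotrophin and GDNF receptor genes, 4 were higher and 4 lower. Gfra3, the artemin co-receptor of nociceptors, rose by 2.06 (SE 0.15, adjusted p 5.3e-19) and Gfra1, the GDNF co-receptor, by 1.66. Of 34 tubulin and microtubule protein genes, 12 were higher, led by Tubb6 (3.37) and the stathmin gene Stmn4 (3.08), and 6 were lower, among them Map2 (-0.52, but 0.08 by a further kept probe).

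By the same rule on background, the genes that fell furthest were led by Htr3b, Rem2, Prmt8 and Igsf21. Htr3b, a subunit of the serotonin-gated channel, read 9.01, 8.89, 8.61 and 8.86 after axotomy, against 11.33, 11.45, 11.63 and 11.69 in naive ganglia (-2.68, SE 0.24, adjusted p 1.2e-14). Its partner subunit gene Htr3a read 8.03, 7.64, 7.68 and 8.0, against 10.30, 10.30, 10.60 and 10.15 (-2.50, SE 0.22, adjusted p 4.2e-15). The small GTPase gene Rem2, a brake on calcium channels, read 9.50, 9.34, 8.75 and 9.12, against 11.73, 11.82, 11.81 and 11.80 (-2.61, SE 0.15, adjusted p 2.1e-23). In all of these the injured and naive arrays did not overlap. Sst, the neuropeptide somatostatin of itch neurons, read 7.82, 6.88, 6.80 and 7.65, against 9.56, 9.68, 9.63 and 9.71 (-2.36, SE 0.23, adjusted p 2.9e-13). Mrgprd, the receptor that marks non-peptidergic nociceptors, read 8.06, 7.90, 7.43 and 7.48, against 10.27, 10.08, 9.96 and 10.16 (-2.40, SE 0.18, adjusted p 1.3e-17). The others of the lowest 10 were the methyltransferase gene Prmt8 (-2.56), the adhesion gene Igsf21 (-2.54), the potassium channel subunit gene Kcnmb1 (-2.45), the pentraxin gene Nptx1 (-2.40) and the scaffold gene Lin7b (-2.37).

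A further 37 genes (0.313% of those tested) were above background on all 4 naive arrays and on no AX5D array and were called. Aifm3, a mitochondrial apoptosis-related gene, read 8.01, 8.26, 8.42 and 8.26 in naive ganglia and was lower by at least 4.90-fold after axotomy. Galr2, a galanin receptor, was lower by at least 3.74-fold (adjusted p 9.1e-20), while its ligand gene Gal rose. The transcription factor gene Pou4f3 (at least 2.37-fold), the AMPA receptor subunit gene Gria4 (at least 2.13-fold), Kl, which encodes klotho (at least 2.19-fold), Calhm4 (at least 2.50-fold), Fam13a (at least 2.48-fold) and the sulfotransferase gene Chst9 (at least 2.40-fold) were lower as well.

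Most markers of nociceptors and of large-diameter neurons fell in WSB ganglia. Of 25 nociceptor markers, 17 fell and 2 rose, Gfra3 and its signalling partner gene Ret (0.36), with a median of -0.84. The sodium channel genes Scn10a (-1.46, SE 0.13) and Scn11a (-1.26, SE 0.10) and the substance P gene Tac1 (-1.46, SE 0.12) fell, while Trpv1, the capsaicin receptor, had a response of 0.01 and P2rx3 of -0.24 without a call. Of 17 markers of large-diameter neurons, 15 fell and 0 rose (median -0.94), among them the sodium channel gene Scn1a (-1.49), Pvalb (-0.86) and the neurofilament gene Nefh (-0.70). The summed intensity of the nociceptor list was 37863 to 41913 after axotomy and 72703 to 79165 in naive ganglia, and that of the large-diameter list 57748 to 64815 and 99778 to 109356. The groups of arrays did not overlap in either sum.

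Of 30 voltage-gated channel genes, 22 fell and 1 rose, with a median of -0.94. The one that rose was Cacna2d1, the calcium channel subunit that binds gabapentin, at 2.09 (SE 0.17, adjusted p 8.2e-17). The sodium-activated potassium channel gene Kcnt1 fell by 1.85 (SE 0.16), Kcna2, a potassium channel of the axon, by 1.66 (SE 0.12) and the pacemaker channel gene Hcn2 by 1.41 (SE 0.11). Of 24 synaptic vesicle genes, 18 were lower, led by the complexin gene Cplx2 (-1.95) and the vesicular glutamate transporter gene Slc17a8 (-1.74), and 3 were higher, Napa (0.68, but -0.17 by a further kept probe), Stx1a (0.50) and Slc17a6 (0.25). Among 32 axon guidance and adhesion genes, 5 were higher, with Sema6a at least 6.46-fold, and 9 were lower, with Sema7a at -1.41. Over all genes, 18.4% were higher and 19.2% lower.

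Macrophage markers rose in 26 of 28 measured members, with a median of 2.58. C1qb, a complement subunit made by tissue macrophages, averaged 11.69 ± 0.09 after axotomy and 7.81 ± 0.30 in naive ganglia (SD, n = 4 arrays each), a response of 3.87 (SE 0.17, adjusted p 5.5e-29). The mannose receptor gene Mrc1 averaged 11.46 ± 0.08 after axotomy and 8.32 ± 0.31 in naive ganglia (3.14, SE 0.15, adjusted p 1.7e-27). Trem2, a lipid receptor of macrophages, was above background on 4 AX5D and 0 naive arrays (at least 9.04-fold). The members without a call were the cathepsin gene Ctsb (-0.08) and the Fc receptor chain gene Fcer1g, whose probe was above background on no WSB array. The summed intensity of the list was 107351 to 119304 after axotomy and 48501 to 57695 in naive ganglia.

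Other immune lists moved less. Of 24 genes for MHC molecules and antigen presentation, 11 rose and 1 fell (median 0.55), with the class II gene H2-Ab1 at 2.64 and the co-stimulatory gene Cd86 at 2.35. Of 31 interferon-stimulated genes, 16 rose and 1 fell (median 0.47), with the GTPase gene Igtp at 1.92. Of 22 chemokines and receptors, 12 rose and 1 fell, the receptor gene Cxcr4 (-1.10). The monocyte attractant genes Ccl7 and Ccl8 (at least 6.76-fold) rose, whereas Ccl2, Ccl5, Ccl6 and Cxcl13 were above background on no WSB array. Of 17 complement and acute phase genes, 7 rose and 2 fell, with the complement inhibitor gene Cd55 at -1.94. Neutrophil markers were higher in 4 of 18, near the 18.4% of all genes, and none of 10 T and NK cell markers was called, with Cd3d, Cd3g, Ccl5 and Il2rb above background on none of the 8 arrays. Of 7 B cell markers, 1, Fcmr (2.63), was higher.

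Among glial and stromal lists, the fibroblast list had the largest share of higher calls. Over all genes 18.4% were higher and 19.2% lower, and the lists of satellite glia and of endothelium were near or below those shares. Myelinating Schwann cell markers were higher in 6 of 18, with the peripheral myelin gene Pmp2 at 0.76 and Mag at 0.38, and S100b (-1.57) was lower. The call of Mag was lost without AX5D replicate 4 or without naive replicate 1. Satellite glia markers were higher in 3 of 16 and lower in 4. Of 14 repair Schwann cell genes, 6 rose and 3 fell. Of 26 fibroblast and matrix genes, 17 rose and 0 fell, with a median of 0.72. Timp1, an inhibitor of matrix proteases, rose by 3.60, the proteoglycan gene Lum by 1.61 and the collagen gene Col15a1 by 1.27. Endothelium and pericyte markers were higher in 2 of 19 and lower in 2. The sum over the fibroblast list was 58996 to 69587 after axotomy and 42666 to 53360 in naive ganglia, while that of satellite glia was 61122 to 66067 and 66295 to 72566.

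Lists of basic cell functions are read against the 18.4% of all genes that were higher and the 19.2% that were lower. Of 25 cell cycle genes, 14 rose and 1 fell, led by Kif22, the spindle gene Prc1 (3.41) and the cell cycle inhibitor gene Cdkn1a (2.07). Of 18 sterol synthesis genes, 10 rose and 1 fell (median 0.40). Hsd17b7, an enzyme of late cholesterol synthesis, averaged 14.37 ± 0.13 after axotomy and 11.98 ± 0.19 in naive ganglia (SD, n = 4 arrays each, response 2.39, SE 0.08, adjusted p 4.6e-34). Of 25 genes of the unfolded protein response, 12 rose and 1 fell, with the glutathione-degrading enzyme gene Chac1 at 1.66. Oxidative phosphorylation subunits were lower in 13 of 39 and higher in none, cytosolic ribosomal proteins higher in 8 of 24, proteasome subunits higher in 6 of 28, a share near that of all genes, glycolytic enzymes lower in 6 and higher in 2 of 18, and heat shock proteins lower in 9 and higher in 3 of 26. Adipocyte, erythroid and oligodendrocyte lists had 1 or 2 calls each, out of 6, 5 and 4 members.

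The WSB response was then set against the mean response of the other 8 strains, each strain weighted equally. It differed in 811 of 11815 genes (6.86%), 423 with a higher response in WSB (3.58%) and 388 with a lower one (3.28%). Without WSB AX5D replicate 3 the count was 498, with 253 higher and 245 lower, and with median scaling in place of quantile normalisation it was 451. Most of the differences were of size and not of direction. Of the 423 higher responses, 350 were of genes called in the same direction in WSB and in the others' mean, whose own response was called in 58.8% of genes, and of the 388 lower ones, 307 were. Only 8 of the higher and 10 of the lower ones were calls in opposite directions. Among these was P2rx2, a subunit of ATP-gated channels of sensory neurons, at 0.77 in WSB (SE 0.17) and -0.15 as the mean of the others, and the growth factor gene Mdk, at -0.36 in WSB and 0.13.

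Where the levels differed can be read from the naive and injured ganglia taken apart. Of the 423 genes with a higher WSB response, 212 differed in level from the other strains after axotomy alone, 104 in naive ganglia alone, 92 in both and 15 in neither. For the 388 with a lower response the counts were 176, 103, 98 and 11. The level itself differed between WSB and the other strains in 3125 genes (26.4%) after axotomy and in 2846 genes (24.1%) in naive ganglia. The strain difference in response thus lay more often in the injured than in the uninjured level.

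Changes that WSB shared with the other strains went further in WSB. The slope of the WSB response on the mean response of the other 8 strains, across all 11815 genes, was 1.23, and the 4 AX5D arrays taken singly gave 1.18 to 1.29. Each other strain, set against its own 8 counterparts in the same way, had a slope of 1.12 (DBA), 1.01 (129), 0.99 (C3H), 0.91 (CAST), 0.88 (NOD and NZO) or 0.86 (AJ and C57). The lowest WSB array lay above the highest array of any other strain, which was a DBA array at 1.15. Genes are not independent replicates. The AX5D arrays of a strain were set against the same naive mean, so their range leaves out the spread of the naive arrays. The slopes are given as a description.

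**Figure D2:**
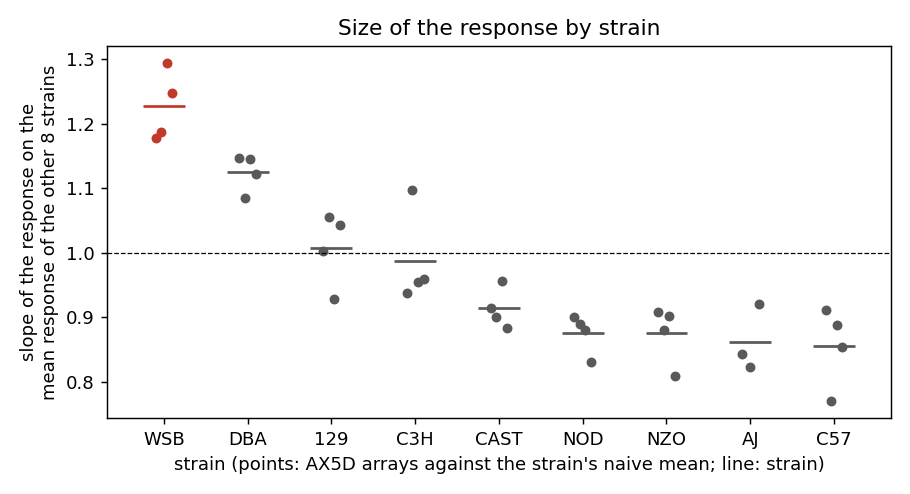
Slope of the response (vertical axis) of each strain on the mean response of its other 8 strains across 11815 genes, with each AX5D array against its strain's naive mean as a point and the strain's slope as a line. The 4 WSB points, in red at the left, span 1.18 to 1.29, and the points of the other strains reach 1.15.

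The same was seen in counts. Of 562 genes that changed at least 2-fold in the mean of the other strains, 462 (82.2%) changed further in WSB, against 20.5% (C57) to 73.3% (DBA) when each other strain was set against its own counterparts. The 414 genes up at least 2-fold elsewhere had a median response of 1.94 in WSB and 1.49 in the mean of the other strains, and the 148 genes down at least 2-fold had -1.70 and -1.20. All 148 of these were called lower in WSB, 70 of them more strongly than elsewhere and 0 less strongly. Among the 102 genes up at least 4-fold elsewhere, 100 were called higher in WSB, 46 by more and 5 by less. WSB had 198 genes at least 4-fold higher, against 102 (NOD and NZO) to 185 (CAST), counted by fold alone without regard to calls.

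Among single strains, the WSB response was nearest to that of DBA and farthest from that of CAST. The count of genes whose response differed from WSB was 240 (2.03%) for DBA, 399 (3.38%) for C3H, 491 (4.16%) for 129, 557 (4.71%) for AJ, 589 (4.99%) for NZO, 606 (5.13%) for C57, 623 (5.27%) for NOD and 1016 (8.6%) for CAST. The correlation of responses across genes, a description that shares the WSB arrays in every pair, was 0.87 with DBA and 0.73 with CAST.

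**Figure D3:**
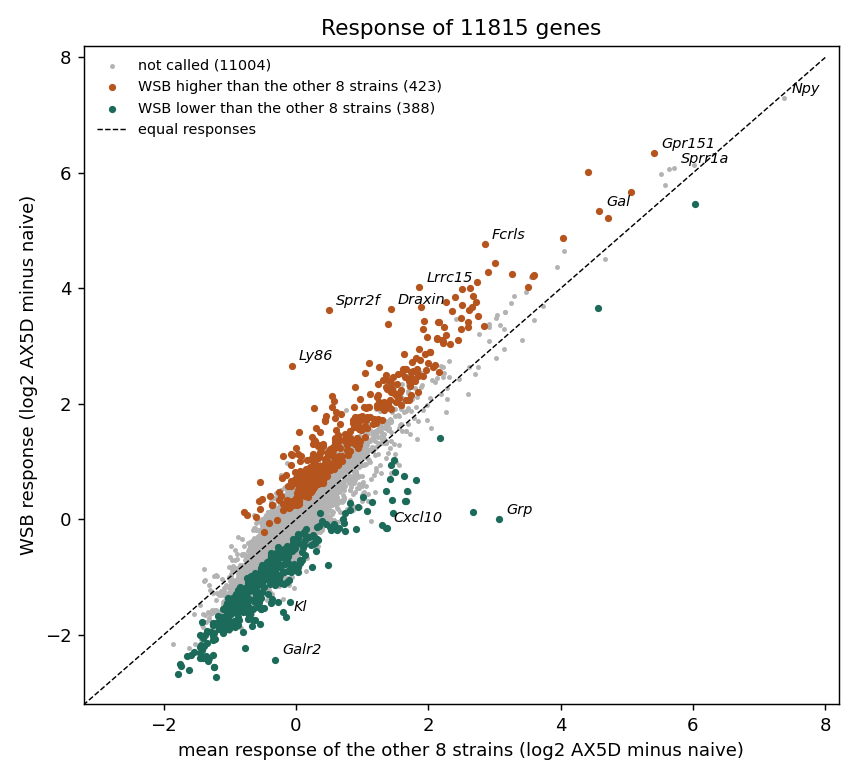
WSB response (vertical axis) against the mean response of the other 8 strains (horizontal axis), both as log2 AX5D minus naive, for 11815 genes, with called differences in brown (423 higher in WSB) and green (388 lower in WSB). Brown points lie above and green points below the dashed line of equal responses, and Ly86, Sprr2f, Grp and Galr2 lie off the main cloud.

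Macrophage markers were among the genes that went further in WSB. Of 28 measured, 15 had a higher and 2 a lower response than the mean of the other strains, against 423 and 388 of all 11815 genes, and 13 had the highest response of the 9 strains, as did 14% of all genes. The median was 2.58 in WSB and 1.82 in the mean of the others. The Fc receptor gene Fcgr2b had a response of 3.77 in WSB and 1.17 to 3.03 elsewhere (difference 1.49, SE 0.25, adjusted p 1.7e-05). Lyz2, lysozyme of myeloid cells, had 3.42 in WSB and 1.60 to 2.50 elsewhere (1.28, SE 0.22, adjusted p 2.7e-05). Fcrls read 10.90, 11.18, 11.32 and 10.87 after axotomy and 6.59, 5.94, 6.27 and 6.43 in naive WSB ganglia, a response of 4.76, against 2.19 to 3.48 in the other strains (1.91, SE 0.24, adjusted p 2.6e-08). In level, 15 of the 28 were higher in WSB than elsewhere after axotomy and 3 lower, while in naive ganglia 3 were higher and 11 lower. Over all genes 13.8% were higher and 12.7% lower in WSB after axotomy, and 12.1% and 12% in naive ganglia. These counts cover all 28 members and not only those with a higher response. By them, more members were higher than lower after axotomy, and more were lower than higher in naive ganglia. The summed intensity of the list in the other strains was 72973 to 117828 after axotomy and 35238 to 62934 in naive ganglia. The naive WSB sums, 48501 to 57695, lay within that naive range. The 2 lower responses were those of Clec4n and Fcer1g, above background on 2 and on 0 of the 8 WSB arrays. The Fcer1g probe was also above background on no array of 129, AJ, C3H, DBA, NOD or NZO. Only C57 (2.36) and CAST (2.92) responded by it, so its lower response was not particular to WSB.

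**Figure D4:**
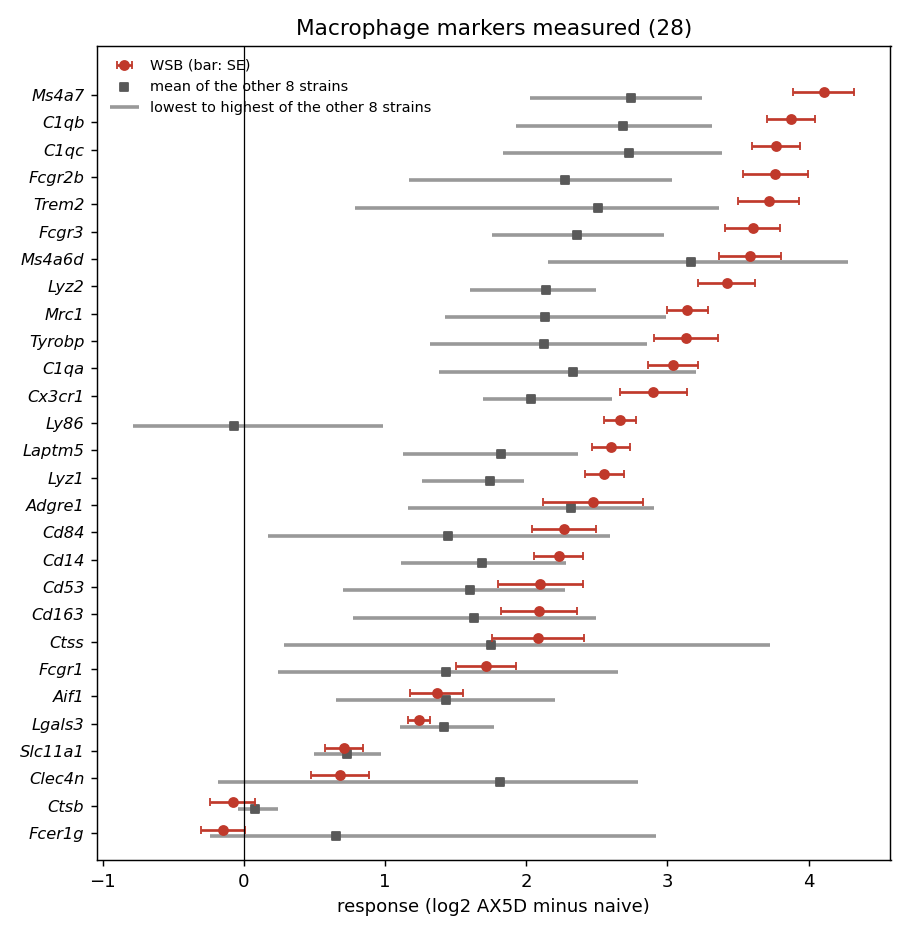
Response (log2 AX5D minus naive, horizontal axis) of the 28 measured macrophage markers in WSB (red points with SE) and in the other 8 strains (grey square for the mean, grey bar from the lowest to the highest strain). In 13 genes the WSB point lies to the right of the whole grey bar, and for Ly86 it stands at 2.67 while the other strains span -0.78 to 0.99.

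Ly86, the partner of a Toll-like receptor homologue on myeloid cells and B cells, stood apart in level as well as in response. It read 10.19, 10.09, 10.06 and 10.03 on the AX5D arrays of WSB, against 7.36, 7.47, 7.29 and 7.59 on the naive arrays (2.67, SE 0.11, adjusted p 4.3e-30), while the other strains responded by -0.78 to 0.99 (difference 2.73, SE 0.12, adjusted p 9.8e-28). Its WSB level was below the others' mean by 1.82 in injured and by 4.55 in naive ganglia. Probes of several other immune genes read low in WSB too. S100a8 was above background on 1 of 8 WSB arrays, although S100a9, which encodes its protein's dimer partner, averaged 10.69 ± 0.84 after axotomy and 10.47 ± 0.49 in naive WSB ganglia (SD, n = 4 arrays each). The MHC class II gene H2-Eb1 was 4.63 below the other strains after axotomy and 3.28 below them in naive ganglia, while H2-Ab1 was 0.68 above and 0.70 below. The probe sequences were not used here, so a probe that binds the WSB transcript poorly and a low transcript level cannot be told apart.

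For interferon-stimulated genes the few called differences were mostly lower in WSB. Over all genes, 3.58% had a higher and 3.28% a lower response in WSB. Of 31 interferon-stimulated genes, 1 had a higher and 5 a lower response in WSB than in the mean of the other strains, with medians of 0.47 in WSB and 0.74 elsewhere. Without CAST among the other strains the counts were 2 higher and 1 lower, and the count of 5 was 3 without AX5D replicate 1, 2 or 4 or without naive replicate 1, 2 or 4. Ifit3 had a response of -0.17 in WSB and -0.31 to 3.72 in the other strains. Cxcl10, an interferon-induced attractant of T cells, read 6.48, 6.24, 6.16 and 6.47 after axotomy, against 6.43, 6.49, 6.04 and 6.95 in naive WSB ganglia, with overlapping groups and a response of -0.14. The other strains had 0.07 to 3.25 for it (difference -1.50, SE 0.43, adjusted p 0.020), a call lost without WSB AX5D replicate 3, without naive replicate 4, and without CAST or C3H. The 2 kept probes of Ccl12, a monocyte attractant, disagree. The one used here was above background on 0 of 8 WSB arrays and on 27 of 31 AX5D arrays of the other strains, and had a lower response in WSB. The other was above background on 4 AX5D and 0 naive WSB arrays, with a response of 3.82 in WSB and 2.86 in the mean of the others, so no direction is given for Ccl12. Pf4, a platelet and macrophage chemokine, was higher in WSB by 2.00 (SE 0.39, adjusted p 0.00033), at 3.39 against 0.01 to 2.88, and Ccl7 by 1.39 (SE 0.29, adjusted p 0.00073). Of the 22 chemokine genes and receptors, 7 had a higher and 5 a lower response in WSB. The count of 7 was 4 without AX5D replicate 3 or 4 or without NOD and 3 without naive replicate 4, and the count of 5, which includes Ccl12, was 3 without AX5D replicate 3 or naive replicate 4.

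Some regeneration-associated genes rose further in WSB, where 3.58% of all genes had a higher and 3.28% a lower response than elsewhere. Of the 49 regeneration-associated genes, 17 had a higher and 2 a lower response than elsewhere (12 higher without WSB AX5D replicate 3), with medians of 2.09 in WSB and 1.65 in the others. Jun had the highest response of the 9 strains (1.98, against 0.75 to 1.83, difference 0.60, SE 0.09, adjusted p 2.6e-06), as did Plaur (3.16, against 1.49 to 2.44). For Npy (7.30, against 6.55 to 8.44), Sprr1a (6.08, against 4.84 to 6.47), Atf3 (5.98, against 4.84 to 6.41) and Gap43 (1.32, against 0.96 to 1.64) the WSB value lay within the range of the others and no difference was called. Gal had the highest response (5.34, against 3.57 to 5.18), with an adjusted p of 0.047 that did not hold without any 1 of the 8 WSB arrays, at adjusted p 0.063 to 0.12. Its injured level differed from that of the other strains by 0.00 and its naive level was 0.75 lower. Cckbr had a lower response in WSB than the mean of the others (5.46, against 6.03), within their range of 4.15 to 7.31.

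Some nociceptor and channel genes fell further in WSB, where 3.28% of all genes had a lower and 3.58% a higher response than elsewhere. Of 25 nociceptor markers, 8 had a lower and 1, Gfra3, a higher response in WSB than elsewhere, with medians of -0.84 and -0.51, and the count of 8 was 3 without WSB AX5D replicate 3 and 5 without AJ. Mrgprd stood at -2.40 in WSB and at -1.89 to -0.66 in the other strains (difference -0.94, SE 0.19, adjusted p 0.00059), and Sst at -2.36 and at -2.30 to -0.78. Of the 25 markers, 8 had their lowest response of the 9 strains in WSB. In DBA, Htr3b (-3.22, against -2.68 in WSB), Htr3a (-2.86, against -2.50) and Th (-2.12, against -1.64) fell further than in WSB. Mrgprd (-1.89) and Sst (-1.78) fell less in DBA. The deeper fall of nociceptor markers was thus in part shared with DBA. Of 30 voltage-gated channel genes, 9 had a lower and 0 a higher response, and 18 had the lowest of the 9 strains, as did 14.9% of all genes. Kcnt1 stood at -1.85 in WSB and -1.35 to -0.81 elsewhere, and Hcn2 at -1.41 and -1.19 to -0.40. Insyn2b, an inhibitory synapse protein gene, read 7.16, 7.61, 7.15 and 6.66 after axotomy, against 9.21, 9.28, 9.56 and 9.45 in naive WSB ganglia (-2.23), while the others had -1.53 to -0.20 (difference -1.46, SE 0.19, adjusted p 8.9e-08). Large-diameter neuron markers had medians of -0.94 in WSB and -0.75 elsewhere, with 0 lower and 1 higher call, Ntrk2. A further kept probe of Ntrk2, above background on all arrays, had the opposite difference (-0.67), with a response of -1.35 in WSB and -0.69 elsewhere. Prmt8 (-2.56, against -1.97 to -0.62) lost its call without AX5D replicate 3, the array that read 5.44, where the difference was -0.87.

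Sterol synthesis genes stood higher in WSB. Of 18 measured, 9 had a higher response than in the mean of the other strains and 0 a lower one, against 3.58% and 3.28% of all genes, and 10 had the highest of the 9 strains, against 14% of all genes, with medians of 0.40 in WSB and 0.11 elsewhere. Insig1, the regulator that holds back sterol synthesis when sterols are plentiful, averaged 10.13 ± 0.15 after axotomy and 8.78 ± 0.13 in naive WSB ganglia (SD, n = 4 arrays each), a response of 1.35, against 0.13 to 0.53 elsewhere (difference 1.06, SE 0.17, adjusted p 9.5e-06). The probes of Insig1 disagree. A second kept probe had a difference of 0.95, whereas another, above background on 3 AX5D and 4 naive WSB arrays, had a response of -1.002 in WSB and -0.40 in the mean of the others. The enzyme genes Lss (1.06, against -0.02 to 0.56) and Mvd (1.23, against -0.10 to 1.14) also had the highest response. In level, 10 of the 18 were higher in WSB than elsewhere after axotomy, and 9 were lower in naive ganglia.

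Smaller differences were found in other lists, where 3.58% of all genes had a higher and 3.28% a lower response in WSB. Cell cycle genes had 6 higher and 0 lower responses among 25, with Ccnd1, cyclin D1, at 1.09 against -0.03 to 0.96. Of the 25, 4 had the highest response of the 9 strains in WSB, against 14% of all genes. Top2a (1.91, against 1.12 in WSB), Mcm6 (1.88, against 1.35) and Cdc20 (1.49, against 0.92) rose further in DBA. Mcm10, a replication factor gene, stood at 2.13 against -0.17 to 1.42 (difference 1.58, SE 0.32, adjusted p 0.00045). Fibroblast and matrix genes had 3 higher responses among 26, those of Lum, Col15a1 and Loxl1. Fabp7, a fatty acid carrier of satellite glia, had 1.12 against -1.23 to 0.40, with injured and naive WSB arrays that overlapped, and its call was lost without AX5D replicate 1 or naive replicate 3 or 4, or without CAST. No member of the lists of myelinating Schwann cells, oxidative phosphorylation, ribosomal proteins, glycolysis or heat shock proteins was called for a difference in limma.

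A stricter group was made of genes whose WSB response differed from that of each of the 8 strains taken singly. In all 24 genes (0.203%) did so, 22 of them in the same direction against every strain (0.186%). They were 14 with a higher WSB response than every other strain (0.118%), 8 with a lower one (0.0677%) and 2, Clec4n and Lmx1a, between strains. The 14 were Ly86, Draxin, Lrrc15, Fcrls, Cryba2, Csn3, Sdc1, Capg, Insig1, Ccdc172, Gemin4, Phlda3, Stbd1 and H1f2. The 8 were Grp, Galr2, Kl, Dbndd1, Kcnab1, Abca4, Rabif and Scg5. Leaving out the DBA strain, the one most like WSB, gave 44 genes, testing only genes above background in both WSB groups gave 14, and median scaling gave 13. A further kept probe disagreed with the one used in Draxin, Capg, Insig1 and Rabif.

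Among the 14, Lrrc15, a leucine-rich membrane protein of activated fibroblasts whose promoter is printed above, read 9.72, 9.92, 10.07 and 10.13 on the AX5D arrays, against 5.32, 6.46, 5.82 and 6.13 on the naive WSB arrays (4.02, SE 0.19, adjusted p 2.0e-27). The other strains had responses of 0.37 to 2.98 (difference 2.16, SE 0.20, adjusted p 1.9e-12), and its naive level differed by 0.07. Sdc1, the proteoglycan syndecan 1, read 9.86, 9.92, 10.37 and 10.29, against 5.66, 5.33, 5.98 and 5.75 (4.43, SE 0.20, adjusted p 4.1e-28), while the others had 2.80 to 3.45. For Sdc1 a further kept probe responded by 4.17 in WSB and by 3.35 in the mean of the others. Both genes were low in naive WSB ganglia and stood above every other strain's response after injury. The lowest signal above background on the naive WSB arrays was 5.93 to 5.96. Some naive readings of Lrrc15 and Sdc1, and of Draxin, lay under that signal, so these responses are inexact as folds. Draxin, a secreted repellent of growing axons, read 9.06, 9.29, 9.61 and 9.06, against 5.37, 5.36, 6.05 and 5.69 (3.64, SE 0.20, adjusted p 7.9e-24), with 0.07 to 2.57 elsewhere (difference 2.21, SE 0.21, adjusted p 1.0e-11). Its 2 other kept probes had WSB responses of -0.10 and -0.50, so the probes of Draxin disagree.

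Cryba2, a crystallin gene, read 11.84, 11.65, 11.997 and 11.94, against 7.66, 8.13, 8.19 and 7.46 in naive WSB ganglia (4.00, SE 0.12, adjusted p 2.0e-37), with 2.11 to 3.18 elsewhere. Its injured level was 0.19 from the others' and its naive level 1.31 below, so the difference lay in naive ganglia. Csn3, a milk casein gene, was above background on the 4 AX5D arrays of WSB (6.46, 6.03, 6.97 and 6.08) and on no naive WSB array and 0 of 31 AX5D and 0 of 31 naive arrays elsewhere, at a signal close to background (at least 1.36-fold). Capg, an actin-capping protein of macrophages, had 1.14 in WSB and -0.23 to 0.29 elsewhere.

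**Figure D5:**
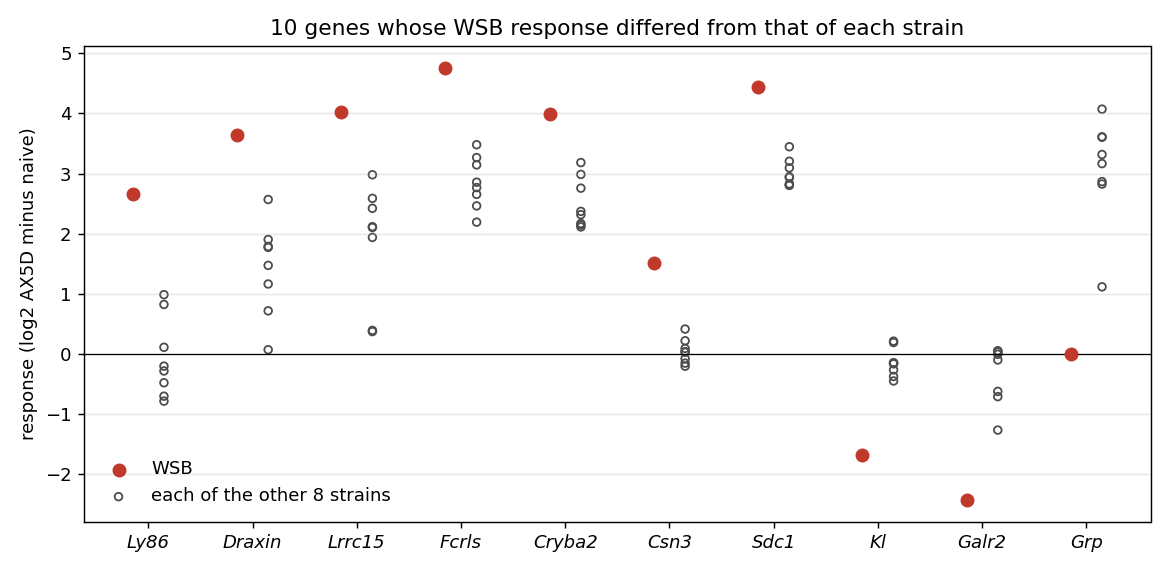
Response (log2 AX5D minus naive, vertical axis) of 10 genes whose WSB response (filled red) was called different from that of each of the other 8 strains (open circles). In Grp the WSB point stands at 0.00 and the other strains at 1.12 to 4.07, and in Ly86, Draxin, Lrrc15, Fcrls, Cryba2, Csn3 and Sdc1 the WSB point is the highest.

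Grp, gastrin-releasing peptide, an itch transmitter, was the gene with the lowest difference. WSB read 5.61, 4.97, 5.0 and 4.85 on the AX5D arrays and 5.24, 4.97, 5.14 and 5.06 on the naive arrays, none of them above background. In the other strains it was above background on 31 of 31 AX5D arrays and on 0 of 31 naive arrays. Its rise there was at least 1.57-fold in CAST, at least 3.90- to 6.36-fold in 129, AJ, C3H, C57, DBA and NZO, and at least 10.8-fold in NOD. The induction measured in each of the other 8 strains was thus not detectable in WSB (fitted difference -3.07, SE 0.23, adjusted p 4.4e-16). A fitted difference that rests on readings not above background depends on those readings and is no measure of fold. Such genes included Grp, Galr2, Kl, Csn3, Slc18a3, Sprr2f and Lipn, and in part Lrrc15, Sdc1 and Draxin. Cckbr, C1ql2, Ccl7, Speer3 and Speer1, above background on no naive WSB array, were also among them. So were Aifm3, Pou4f3, Calhm4 and Chst9, above background on no injured WSB array. Injured ganglia of the other strains were at least 1.62- to 10.6-fold above those of WSB for Grp. The limit given above for probes that read low in WSB holds for Grp too.

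Galr2 and Kl had a lower response in WSB than elsewhere and a higher naive level. Galr2 read 5.17, 5.48, 5.43 and 5.60 after axotomy, all not above background, against 8.10, 8.30, 7.42 and 7.57 in naive WSB ganglia. Only 7 of 31 naive arrays of the other strains were above background for it, in AJ, C3H and DBA, and 0 of 31 injured ones. The naive level of WSB was at least 3.57- to 3.83-fold above the 5 strains with no naive array above background (fitted difference of responses -2.11, SE 0.18, adjusted p 2.7e-14). Kl read 5.36, 5.19, 5.14 and 5.90 after axotomy, against 6.82, 7.0, 7.41 and 7.09 in naive WSB ganglia, and it was above background on 1 of 31 naive and 1 of 31 injured arrays elsewhere (fitted difference -1.54, SE 0.20, adjusted p 8.9e-08). Both were thus above background on all 4 naive WSB arrays and on no injured one, while all 4 naive DBA arrays also measured Galr2. Mgst2, a microsomal glutathione transferase gene, fell in WSB (-1.42, against -0.52 to 0.60 elsewhere) and stood above the other strains by 1.68 after axotomy and 3.01 in naive ganglia.

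Some differences were shared by WSB with 1 other strain. Slc18a3, the vesicular acetylcholine transporter, read 7.03, 6.78, 7.16 and 7.47 on the AX5D arrays of WSB and was above background on no naive array (at least 2.25-fold). DBA was the other strain with it, at a mean of 6.71 on 4 AX5D arrays (at least 1.67-fold), and the remaining 7 strains had it on none. Lmx1a, a homeobox transcription factor, rose by 2.30 in WSB and by 3.48 in DBA, against -0.08 to 1.24 in the other 7. Sprr2f, described above, was shared with NOD. Lipn was induced at least 31.9-fold in WSB and at least 13.1- to 21.6-fold in 7 other strains, and was above background on no CAST array (difference from the mean of the others 1.60, SE 0.17, adjusted p 8.5e-11). That mean includes the CAST value of 0.49, while the other 7 strains had fitted responses of 4.55 to 5.43. Cstdc4, a cystatin gene, rose by 4.28 in WSB, the fourth highest of 9 strains, with 0.58 to 5.45 elsewhere.

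The remaining genes named for a difference were Cd33, a lectin of myeloid cells (2.70, against 0.51 to 2.19), and Abcb1b, a drug efflux pump (2.53, against 0.21 to 2.16), higher in WSB. Those lower in WSB were the chitinase gene Chia1 (-2.73, against -2.21 to -0.18), Cdc123 (-1.60, against -1.01 to 0.60), Plac8 (0.32 without a call, against 0.52 to 3.02) and Aifm3 (-2.55, against -1.60 to -0.67). The call of Cdc123 was lost without AX5D replicate 2 or 3 and naive replicate 1 or 2, and without C57, CAST or NOD. A second probe of Chia1 had a difference of -0.56.

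The 8 WSB arrays lay in 8 different runs of 8 neighbouring columns of the table, and no run held both an injured and a naive WSB array. Taking each WSB array against the arrays of other strains of the same treatment in its own run gave the same sign of the difference for 24 of 24 genes named for it. Within runs the difference was 2.56 for Ly86, 2.03 for Draxin, 2.38 for Lrrc15, 1.66 for Fcrls, -3.15 for Grp and -2.10 for Galr2. The pooled values of these genes were close to those within runs, but both used the same WSB arrays. The 24 genes were also picked for their pooled difference, so the shared sign is no independent support. With injured and naive WSB arrays in different runs, the response itself was not compared within a run.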

How the data were processed

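Dorsal root ganglia of 9 mouse strains, naive or labelled AX5D, were measured on Illumina mouse bead arrays. The deposited table gives, per the file headers, an intensity and a detection p-value for each of 25697 probes in 72 columns, and 2 columns that match no sample used here were left out. The authors' deposited matrix holds log2 values, which equalled quantile-normalised log2 intensities to within 0.027 on every array. It was used as an alternative.

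Intensities were background-corrected with the normexp method of limma 3.58.1 (R 4.3.3) from detection p-values (offset 16), quantile-normalised and put on the log2 scale. Probes above background on at least 3 of 70 arrays were kept (17616), 16568 of them with a symbol in the platform annotation, of all probes 23978 with 1 symbol and 1719 with none. The probe with the highest mean stood for each of 11815 genes, 3261 of which had several. A limma model of 18 group means with a trended prior gave the responses and their differences between strains (52 residual degrees of freedom), adjusted by Benjamini-Hochberg over all genes. The model was tested on simulated data.

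A fold against a group with no array above background is a lower bound, from the mean of the higher of each array's lowest signal above background and the probe's own signal. A slope is that of a least-squares line through the origin across genes. Each list was read by its counts and median. The genes named were the 10 that rose furthest and the 10 that fell furthest among called genes whose groups did not overlap and that were above background on at least 3 of 4 arrays of both WSB groups, up to 8 gained and 8 lost genes with the highest bound, the 10 highest and 10 lowest differences among genes whose WSB response was the highest or lowest of 9, up to 10 genes called against each strain, up to 3 members a list by adjusted p for each test, and 13 genes taken from earlier results; further list members and the genes at low levels in WSB were chosen after their values were seen. The members, lists and tests were chosen with earlier results of these data known. Alternatives were the authors' matrix, other background, scaling, filter, probe, weight, block and fold settings, and leaving out each WSB array or each other strain. Same-numbered WSB samples correlated at -0.05 to 0.39 in their deviations, so the numbers were not taken as pairs.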

Additional observations from a re-analysis of the deposited data

Results flagged for a closer look

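In 2 of 120 groups of 4 arrays, a single array lay far from the other 3, and chance gives about 1 in 20 groups. WSB AX5D replicate 3 read 5.44 for Prmt8, below the other 3, and WSB naive replicate 4 read 7.02 for Calhm4, below the other 3.

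The response of 47 of the 60 genes examined differed in limma between WSB and the mean of the other 8 strains, given here as WSB minus the others on the log2 scale. Those with the largest higher response in WSB were Sprr2f (3.12), Ly86 (2.73), Draxin (2.21), Lrrc15 (2.16), Pf4 (2.00), Fcrls (1.91), Slc18a3 (1.66), Lipn (1.60), Cd33 (1.59), Mcm10 (1.58), Abcb1b (1.49), Cryba2 (1.49), Csn3 (1.47), Sdc1 (1.42), Ccl7 (1.39) and Cstdc4 (1.38). Smaller ones were Gpr151 (0.93), C1ql2 (0.83), Gal (0.75), Kif22 (0.62), Jun (0.60), Speer3 (0.60) and Speer1 (0.51). The lower ones in WSB were led by Grp (-3.07), Galr2 (-2.11), Kl (-1.54), Chia1 (-1.53), Cxcl10 (-1.50), Insyn2b (-1.46), Cdc123 (-1.41), Plac8 (-1.35), Mgst2 (-1.33), Prmt8 (-1.32) and Aifm3 (-1.31). The others were Chst9 (-1.18), Kcnmb1 (-1.12), Nptx1 (-1.08), Pou4f3 (-0.997), Sst (-0.99), Rem2 (-0.99), Calhm4 (-0.95), Mrgprd (-0.94), Htr3b (-0.89), Igsf21 (-0.81), Htr3a (-0.75), Lin7b (-0.73) and Cckbr (-0.57). Many of these genes were picked for a large response or a large difference, so their number is no measure of how often strains differ.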

How the results depend on the processing

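Counts moved by over 1.5 times in a few settings. With median scaling, 451 genes differed between the WSB response and that of the other strains, 244 higher and 207 lower in WSB, and 13 differed from each strain. Of the 451, 446 were also called with quantile normalisation. With a fold of at least 1.5 required, the WSB response held 2495 genes, 1217 higher and 1278 lower. The difference from the other strains then held 432, 238 higher and 194 lower in WSB, the level after axotomy 1112 and the naive level 1016. Genes different from each strain numbered 44 without DBA and 14 among genes above background in both WSB groups, an alternative chosen after seeing the data. Leaving out 1 WSB array in turn gave 3966 to 4359 genes for the response, 1915 to 2135 higher and 2051 to 2224 lower. The difference from the other strains gave 498 to 803, 253 to 429 higher and 245 to 374 lower in WSB, with the lowest counts without AX5D replicate 3. It gave 18 to 35 different from each strain, 2522 to 3134 for the level after axotomy, 2231 to 2855 for the naive level, and a slope of 1.205 to 1.24. The difference of Ly6c1, an endothelial gene, reversed to -0.024 in the authors' matrix and to -0.021 without background correction. The cause was not tested. Of 3287 values of named responses under other settings, 3268 kept their direction and call, and of 1584 values of named differences 1493 did. With the replicate block the counts were 4480 for the response, 778 for the difference and 24 against each strain. The numbers do not pair these samples. Precision is limited by 4 arrays a group, and near background by the signal.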
